A study of Sus scrofa with 3 samples.

Results

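Coagulation factors and plasma carrier proteins are made largely by hepatocytes and secreted into the blood. The genes described here were taken from a list of 38 such proteins by matching the gene name to the deposited tables, which held 34 of them among 34579 annotated features. AHSG, F10, F11 and PROZ had no entry under these names. All 34 genes were mRNA features with a level of at least 1 FPKM (fragments scaled to exon length and to a divisor for each library) in each library. None was thus lost to the filter on low values, which left 15613 of the 22945 mRNA features.

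The samples were livers of Chinese Wuzhishan miniature pigs, labelled 6 to 7 months old, that all were fed for 12 weeks on a diet rich in fat and cholesterol (HFC). In the study's methods that age is the one at which the pigs were obtained, so they were older when the liver was taken. Intact males (IM) had a sham operation, castrated males (CM) were left without hormone, and castrated males given testosterone (CMT) were injected weekly with 10 mg/kg testosterone propionate in corn oil. The comparisons ask how loss of the testes, and then replacement of the hormone, changed the liver transcriptome under this diet. No group on a normal diet was compared here. RNA of the pigs in a group was mixed and sequenced as 1 poly-A library per group. The labels give 3 pigs per pool, whereas the study's methods give 6 pigs per group without the number pooled. With 1 library per group no difference could be tested, and the spread between pigs is unknown.

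Plasma proteins of the liver fall into a few classes. Carriers bind hormones, vitamins, metals and fatty acids that dissolve poorly in water. Coagulation factors circulate as inactive precursors that cleave each other in a cascade, which ends when thrombin converts fibrinogen to fibrin, while serpins, the protein C system and plasmin limit or dissolve the clot. Several factors need vitamin K for the carboxylation of glutamate residues before secretion.

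Reads recovered from the deposited values numbered 32197628 in IM, with 36126730 in CM and 25419901 in CMT. Erythroid markers differed between the pools, with HBB at 17158 FPKM in IM, against 3400 in CM and 5151 in CMT. Of the 12 hepatocyte markers, 11 had an entry and passed the FPKM minimum, so that markers of the labelled tissue were present. These 11 summed to 996690 FPKM in IM, with 748805 in CM and 734795 in CMT, ALB and TTR included. They did not share 1 pattern. TAT and PCK1 were lower in CM than in IM by at least 1.5-fold, and CYP2E1, an ethanol-oxidising cytochrome, was at 3148 FPKM in IM, against 14546 in CM and 54.4 in CMT. Markers of other cell types were also found, and each list summed to far less than that of hepatocytes. The 3 of 5 cholangiocyte markers with an entry were all higher in CM than in IM by at least 1.5-fold. Of all mRNA features past the FPKM minimum, 11.1% were higher by that much. EPCAM was at 36.6 FPKM in IM, against 62.6 in CM and 41.4 in CMT. SOX9 rested on only 8 recovered reads in IM and 20 in CM, and CFTR on 24 and 55. Together the cholangiocyte markers summed to 44.4, 76.3 and 49.0 FPKM. Those of Kupffer cells and macrophages (6 of 7 with an entry) came to 10192 FPKM in IM, with 7517 in CM and 9446 in CMT, and those of lymphocytes (6 of 6) to 366, 495 and 290.1. Their part in the results on plasma proteins was not tested.

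Values are given on 2 scales, the deposited FPKM and the share of a gene in the sum of its FPKM column. The sum was 8660404.8 in IM, against 7247699.3 in CM and 8603712.1 in CMT, and the genes described here are themselves part of it. Because FPKM is per kilobase, levels of different genes can be compared within a library on either scale.

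Together the 34 genes held 15.3% of the column sum in IM, with 12.5% in CM and 13.1% in CMT. Albumin (ALB), the main carrier of fatty acids and the largest contributor to plasma oncotic pressure, made up 7.97%, 6.57% and 5.18% of the column sum and ranked 1 in every library. Without ALB the share was 7.31% in IM, against 5.96% in CM and 7.93% in CMT, so the remaining 33 genes were lowest in CM and the full set was too, but ALB alone was lowest in CMT. Recovered reads were missing for 4 of the genes (FGA, FGB, VTN and KLKB1). The other 30 made up 20.8% of the recovered reads for IM, against 17.7% for CM and 16.8% for CMT. This order of CM and CMT cannot be set against that of the 34 genes, since the gene sets differ. Of the 4 left out, 3 had a larger column share in CMT than in CM. FGA was at 0.85% against 0.32%, FGB at 0.79% against 0.29% and VTN at 0.44% against 0.35%. KLKB1 went slightly the other way, at 0.035% against 0.037%. In FPKM the 34 genes summed to 1323156 in IM, with 908237 in CM and 1127984 in CMT. The deposited column sum of CM differed from that of IM by -16.3%. The 34 genes made up 29.4% of that difference and ALB alone 15.1%. Between CM and CMT the 34 genes made up 16.2% of the difference in column sums, in which ALB went the opposite way. Both differences depend on the library divisors. Equal column sums raised each log2 ratio of CM to IM by 0.26, and equal totals of recovered reads raised it by 0.28. The lower sum of CM is therefore no measure of a loss of transcripts.

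**Figure D1:**
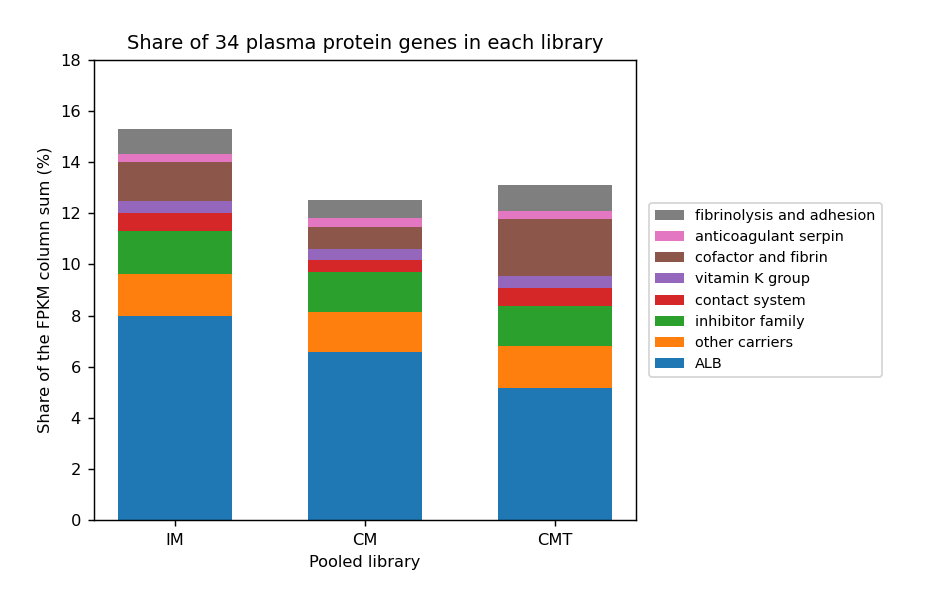
Stacked bars show the share of the FPKM column sum (%) held by ALB and by each role group of the 34 genes in the pooled libraries IM, CM and CMT, with 1 library per bar and no error bar. The whole bar is 15.3% in IM, against 12.5% in CM and 13.1% in CMT, and the ALB part is smallest in CMT at 5.18%.

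CM versus IM compares castrated with intact pigs. Every one of the 34 genes had a lower FPKM in CM than in IM, and 15 of them were lower by at least 1.5-fold, the fold criterion of the study, while 0 were higher by that much. Among all 15613 mRNA features past the FPKM minimum, 12.1% were lower and 11.1% were higher by at least 1.5-fold, and 52% were lower by any amount. Among the 1046 mRNA features that were at least as abundant in each library as the lowest value of the 34 genes (628 FPKM), 18.3% were lower and 3.73% were higher by at least 1.5-fold, and 70.2% were lower by any amount. This second background was chosen after the data were seen. The median log2 ratio of the 34 genes was -0.49 against -0.02 for all 15613 features. In a pool of tissue, fewer hepatocytes and less of a transcript in each hepatocyte cannot be told apart.

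The direction of the smaller differences depended on the scale. As shares of the column sum, the median log2 ratio of all mRNA features moved to 0.24 and that of the 34 genes to -0.23. Of the 34, 26 were lower in CM, against 28.2% of all mRNA features. By at least 1.5-fold, 5 were lower, against a background of 6.87% lower and 20.7% higher. These 5 were FGA, FGB, FGG, KNG1 and F12. The 8 genes whose shares were higher in CM than in IM were RBP4, SERPINA6, AMBP, ITIH1, KLKB1, F7, F13B and SERPINC1. The median of the 34 genes lay 0.47 log2 units below that of all mRNA features. Scaling between libraries cannot alter this gap, since it shifts all log2 ratios alike, so its agreement on both scales is no separate result. Relative to the median of all mRNA features, ITIH1 and KLKB1 were level with it, at 0.018 and 0.0046 log2 units above.

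**Figure D2:**
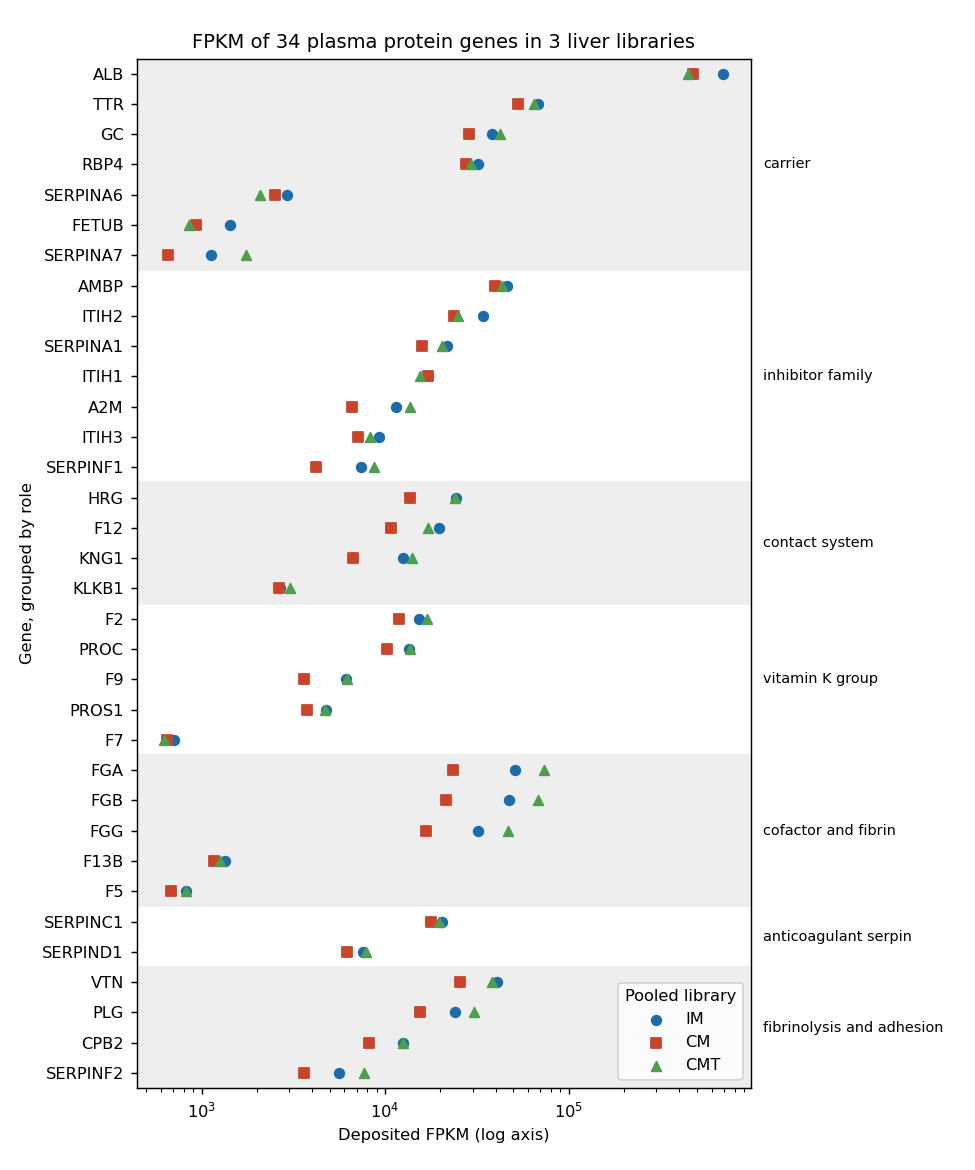
Points give the deposited FPKM (log axis) of each of the 34 genes, grouped by role, in IM (circles), CM (squares) and CMT (triangles), with 1 pooled library each. The CM point lies to the left of the IM point for all 34 genes, though it covers it for ITIH1 and KLKB1, and the fibrinogen genes FGA, FGB and FGG have their CMT point to the right of IM.

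CMT versus CM compares testosterone replacement with castration alone. Of the 34 genes, 29 had a higher FPKM in CMT than in CM, 13 of them by at least 1.5-fold, whereas 5 were lower and 0 were lower by 1.5-fold. The background was 12.1% of mRNA features higher and 13.5% lower by at least 1.5-fold, with 48.5% lower by any amount. Among the 1046 abundant features 22.1% were higher and 4.21% were lower by at least 1.5-fold, and 29% were lower by any amount. The median log2 ratio of the 34 genes was 0.39, against 0.01 for all mRNA features. The genes that were lower in CMT than in CM were ALB, SERPINA6, FETUB, ITIH1 and F7, chosen for mention after their values were seen. As shares of the column sum, 22 of the 34 were higher in CMT than in CM. The other 12 were lower, as were 71.1% of all mRNA features. By at least 1.5-fold, 9 were higher, against a background of 6.73% higher and 22.9% lower. This comparison and CM versus IM share the CM library, so that an error in that library would enter both.

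CMT versus IM compares replaced with natural hormone. Between these libraries 31 of the 34 genes lay within 1.5-fold. SERPINA7 was higher in CMT by at least 1.5-fold, and ALB and FETUB were lower by that much, against a background of 6.67% higher and 10.1% lower, or 3.82% and 4.68% among the abundant features. Of the 34 genes 18 were lower in CMT by any amount, against 51% of all mRNA features and 41.3% of the abundant ones. The median log2 ratio was -0.0086 for the 34 genes and -0.0072 for all mRNA features. The column sums of the 2 libraries differed by -0.655%, so that deposited values and shares gave nearly the same ratios.

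**Figure D3:**
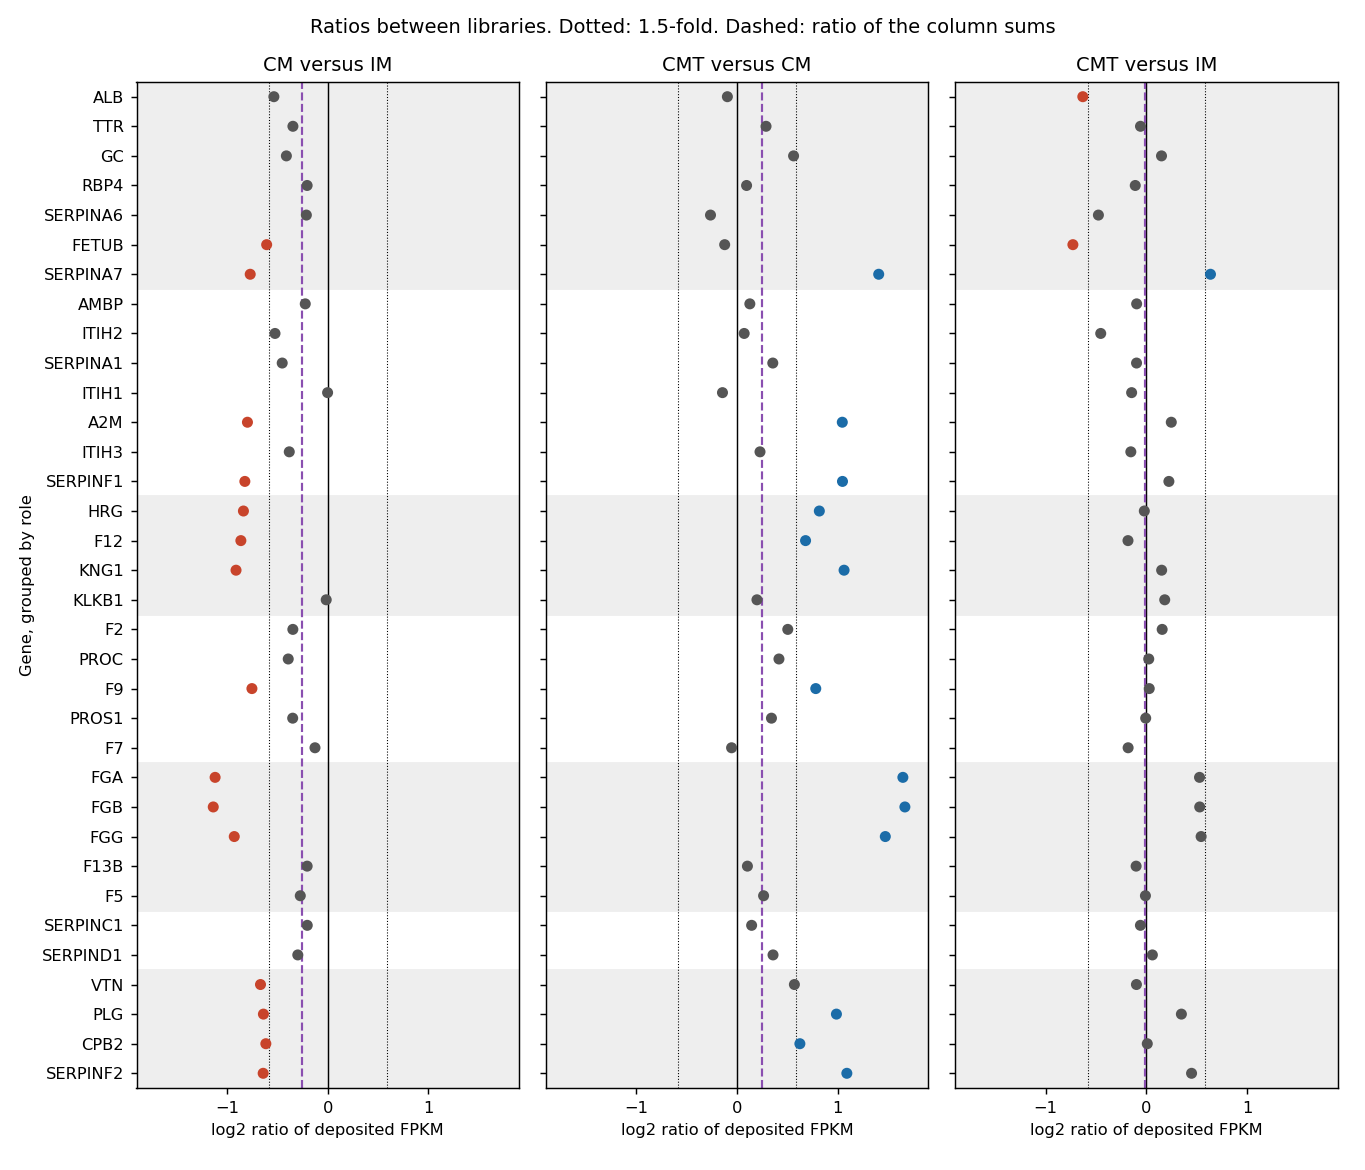
Each panel plots the log2 ratio of deposited FPKM for the 34 genes in 1 comparison, with red points at least 1.5-fold lower, blue points at least 1.5-fold higher, dotted lines at 1.5-fold and a dashed line at the ratio of the column sums, where a share would be equal. There are 15 red points in CM versus IM, 13 blue points in CMT versus CM, and 2 red and 1 blue point in CMT versus IM.

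Carriers differed in whether CMT resembled IM. ALB was at 690375 FPKM in IM, with 476360.2 in CM and 445509 in CMT. It was therefore lower in both castrated pools, and CMT was no closer to IM than CM was. Its ratio was 0.690 for CM to IM and 0.645 for CMT to IM, with 95% exact binomial intervals from the recovered reads of 0.689 to 0.691 and 0.644 to 0.646. These intervals, here and below, cover counting error only. They may be too narrow where the recovered reads of a gene are a multiple of the true ones, and reads of a pair may have been counted separately.

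Transthyretin (TTR), which carries thyroxine and holds retinol-binding protein in the circulation, was at 67592 FPKM in IM, against 53170.0 in CM and 64889.6 in CMT. Its partner RBP4, the carrier of retinol, was at 31875, 27651 and 29515 FPKM. Both were lowest in CM but within 1.5-fold in every comparison, and as shares of the column sum RBP4 was higher in CM than in IM, with a log2 ratio of 0.05. The FPKM of RBP4 was 47.2% of that of TTR in IM, with 52.0% in CM and 45.5% in CMT. GC, the vitamin D-binding protein, was at 38258 FPKM in IM, against 28770.1 in CM and 42444 in CMT, with a ratio of 1.48 for CMT to CM, just short of 1.5-fold.

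The hormone-binding serpins differed in pattern. SERPINA7 encodes thyroxine-binding globulin and was at 1126 FPKM in IM, with 660.2 in CM and 1750.2 in CMT. CM was lowest and CMT highest, with a ratio of 0.586 (0.547 to 0.629) for CM to IM, 2.65 (2.48 to 2.83) for CMT to CM and 1.55 (1.46 to 1.65) for CMT to IM. SERPINA6, which encodes corticosteroid-binding globulin, was at 2910.1 FPKM in IM, against 2511 in CM and 2091 in CMT. It was highest in IM and lowest in CMT. The FPKM of SERPINA7 was 38.7% of that of SERPINA6 in IM, with 26.3% in CM and 83.7% in CMT, a measure that no scaling between libraries can alter. FETUB, a fetuin that inhibits astacin proteases, was at 1421 FPKM in IM, against 933 in CM and 857 in CMT, and thus lower in both castrated pools. Relative to ALB in the same library, FETUB was almost constant, at 0.206% in IM, with 0.196% in CM and 0.192% in CMT.

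Among the protease inhibitors and their relatives, 2 of 7 were lower by at least 1.5-fold in CM than in IM, and the same number were higher by that much in CMT than in CM. These were A2M and SERPINF1 in both comparisons, and each count stands against 12.1% of all mRNA features. On the scale of column shares, 0 of 7 were lower by 1.5-fold in CM, against 6.87% of all mRNA features. Both genes stayed higher by 1.5-fold in CMT than in CM on that scale, against 6.73%. A2M, which encodes the broad protease trap alpha-2-macroglobulin, was at 11493 FPKM in IM, against 6611 in CM and 13639 in CMT. SERPINF1 encodes pigment epithelium-derived factor, a serpin without inhibitory activity, and was at 7423 FPKM in IM, with 4194 in CM and 8665 in CMT. For both genes CM was lowest and CMT highest, and the CMT to CM ratio was 2.06 (2.05 to 2.08) for A2M and 2.07 (2.02 to 2.11) for SERPINF1. SERPINA1, the inhibitor of neutrophil elastase, was at 21841 FPKM in IM, against 15959 in CM and 20404 in CMT, within 1.5-fold throughout. A2M and SERPINA1 belong to gene families with similar members, and how the authors assigned reads shared between copies is not given in the sources used here.

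The inter-alpha-inhibitor proteins join heavy chains, encoded by the ITIH genes, to the light chain bikunin, which is cut from the AMBP precursor. Their genes did not share 1 pattern. AMBP was at 46023 FPKM in IM, with 39415 in CM and 43028 in CMT. ITIH1 was at 17097, 17076 and 15440.3 FPKM, and its CM to IM interval of 0.993 to 1.004 included 1. It was the only one of the 30 genes with recovered reads whose interval did so in that comparison. ITIH2 was at 34262 FPKM in IM, against 23824 in CM and 25012 in CMT, with CMT close to CM. ITIH3 was at 9242, 7089.6 and 8301 FPKM. The FPKM of ITIH2 was 200.4% of that of ITIH1 in IM, 139.5% in CM and 162% in CMT.

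In the contact system, factor XII, plasma prekallikrein and high molecular weight kininogen act together on surfaces, and HRG was grouped with them here. Of these 4 genes, 3 were lower in CM than in IM by at least 1.5-fold and higher in CMT than in CM by that much. Each count stands against 12.1% of all mRNA features. As shares, 2 of 4 were lower in CM (KNG1 and F12), against 6.87%. In CMT versus CM 1 of 4 was higher by that much (KNG1), against 6.73%. KNG1, the kininogen gene, was at 12576 FPKM in IM, with 6687 in CM and 13965 in CMT. F12 was at 19522 FPKM in IM, against 10731 in CM and 17194 in CMT. HRG, a histidine-rich glycoprotein that binds heparin, zinc and plasminogen, was at 24455, 13682 and 24101 FPKM. In each of these genes CM was the low library and IM and CMT lay within 1.5-fold of each other. The exception was KLKB1, the prekallikrein gene, at 2683 FPKM in IM, with 2655 in CM and 3044 in CMT. The FPKM of KNG1 was 4.69 times that of KLKB1 in IM, 2.52 times in CM and 4.59 times in CMT.

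Of the vitamin K-dependent proteins, 1 of 5 was lower in CM by at least 1.5-fold, against 12.1% of all mRNA features. As shares of the column sum 0 of 5 were, against 6.87%, while F7 had a higher share in CM than in IM. F9, the factor IX gene, was at 6095 FPKM in IM, against 3616 in CM and 6214 in CMT, with a ratio of 0.593 (0.581 to 0.606) for CM to IM and 1.72 (1.68 to 1.76) for CMT to CM. Prothrombin (F2) was at 15195 FPKM in IM, with 11946 in CM and 16935 in CMT. PROC, which encodes the anticoagulant protein C, was at 13444, 10239.6 and 13659.9 FPKM, and its cofactor gene PROS1 was at 4748, 3729 and 4724 FPKM. These 3 genes were lowest in CM too, but by less than 1.5-fold. F7, whose product starts the extrinsic pathway with tissue factor, had the lowest level of the group, at 712 FPKM in IM, against 652 in CM and 628 in CMT. Its CMT to CM interval of 0.910 to 1.019 included 1. The FPKM of F9 was 8.56 times that of F7 in IM, 5.55 times in CM and 9.90 times in CMT.

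The fibrinogen chains showed the widest differences between CM and the other libraries. Fibrinogen is a dimer of alpha, beta and gamma chains, and its genes are induced in the acute phase response. FGA was at 50861 FPKM in IM, with 23414 in CM and 73313 in CMT. FGB was at 46989, 21358 and 67812 FPKM. FGG was at 31880.2, 16745 and 46457 FPKM. All chains were thus lowest in CM and highest in CMT. The log2 ratio of CM to IM was -1.12 for FGA, -1.14 for FGB and -0.93 for FGG, and that of CMT to CM was 1.65, 1.67 and 1.47. Of the chains only FGG had recovered reads, with an interval of 0.522 to 0.528 around its CM to IM ratio of 0.525. The CMT to IM ratio was 1.44 to 1.46 for the 3 chains, below the 1.5-fold criterion.

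The chains kept similar proportions. The FPKM of FGA was 1.08 times that of FGB in IM, 1.10 times in CM and 1.08 times in CMT. The FPKM of FGB was 1.47 times that of FGG in IM, 1.28 times in CM and 1.46 times in CMT, so that CM held more of the gamma chain relative to alpha and beta. Summed, the chains made up 9.80% of the FPKM of the 34 genes in IM, against 6.77% in CM and 16.6% in CMT. Relative to ALB in the same library, FGB was at 6.81% in IM, with 4.48% in CM and 15.2% in CMT.

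**Figure D4:**
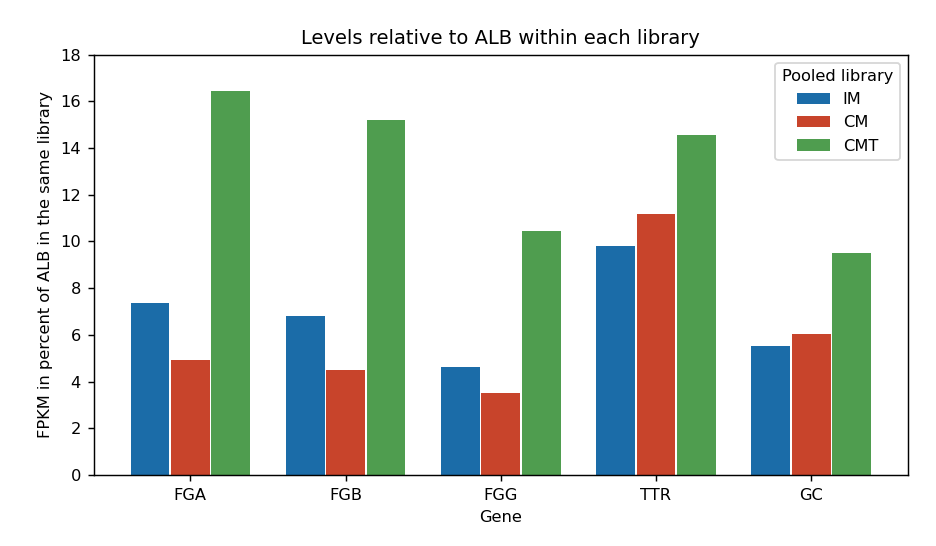
Bars give the FPKM of FGA, FGB, FGG, TTR and GC in percent of the ALB FPKM of the same pooled library (IM, CM or CMT), which no scaling between libraries can change. The fibrinogen bars are lowest in CM and highest in CMT, with FGB at 6.81%, 4.48% and 15.2%, while TTR and GC are lowest in IM.

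The other genes of fibrin formation differed little. F5, the cofactor of factor X, was at 824 FPKM in IM, against 682 in CM and 818 in CMT. F13B, the carrier subunit of the fibrin-crosslinking factor XIII, was at 1347, 1169 and 1255 FPKM. Both were lowest in CM, and neither reached 1.5-fold in any comparison.

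The anticoagulant serpins were also within 1.5-fold. SERPINC1 encodes antithrombin and was at 20389.9 FPKM in IM, with 17702 in CM and 19564 in CMT. SERPIND1, the gene of heparin cofactor II, was at 7572, 6159.8 and 7889 FPKM. As shares of the column sum, SERPINC1 was higher in CM than in IM, with a log2 ratio of 0.05. The FPKM of FGB was 2.30 times that of SERPINC1 in IM, 1.21 times in CM and 3.47 times in CMT.

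All 4 genes of fibrinolysis and adhesion were lower in CM than in IM by at least 1.5-fold, against 12.1% of all mRNA features. The column shares of all 4 were lower in CM too, against 28.2% of all mRNA features. By 1.5-fold 0 were lower, against 6.87%, with ratios of CM to IM from 0.752 for VTN to 0.780 for CPB2. PLG, the gene of plasminogen, was at 24007 FPKM in IM, against 15413 in CM and 30541 in CMT. SERPINF2 encodes alpha-2-antiplasmin, the main inhibitor of plasmin, and was at 5626, 3606 and 7677 FPKM. The enzyme precursor and the inhibitor kept nearly the same proportion, with SERPINF2 at 23.4% of the PLG level in IM, 23.4% in CM and 25.1% in CMT. CPB2, a carboxypeptidase that protects fibrin from plasmin, was at 12447, 8126 and 12519.6 FPKM. VTN, the gene of the adhesion protein vitronectin, was at 40845 FPKM in IM, against 25701 in CM and 38129.5 in CMT. The ratio of CMT to CM was 1.98 for PLG, 2.13 for SERPINF2, 1.54 for CPB2 and 1.48 for VTN, which did not reach 1.5-fold.

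Several genes lay close to the 1.5-fold criterion. FETUB and CPB2 were just past it in CM, at 1.52-fold and 1.53-fold lower than in IM, whereas ALB and ITIH2 were just short of it, at 1.45-fold and 1.44-fold lower. Across the 3 libraries, CM was the lowest for 29 of the 34 genes, against 38.7% of all mRNA features. It was lower by at least 1.5-fold than both other libraries for 13 genes, which is 38.2% of the 34, against 7.12% of all mRNA features. As shares of the column sum, CM was the lowest for 22 of the 34, against 18.4% of all mRNA features, and by at least 1.5-fold for 4 of them (FGA, FGB, FGG and KNG1), against 3.78%.

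**Figure D5:**
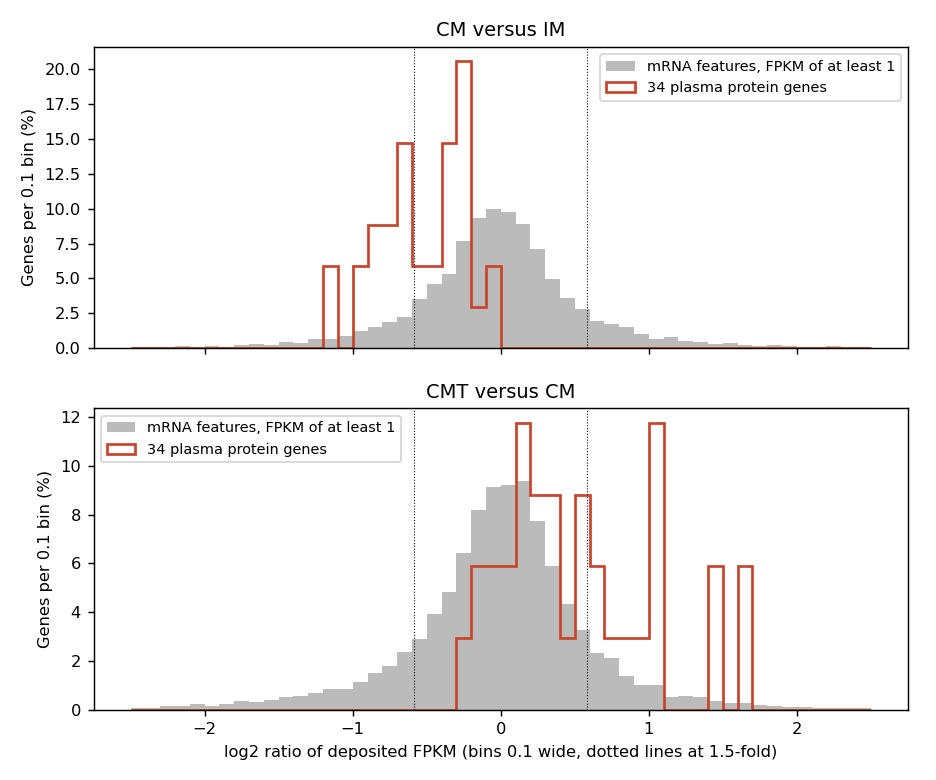
Histograms give the percent of genes per bin of the log2 ratio of deposited FPKM for 15613 mRNA features (grey) and the 34 genes (red outline) in CM versus IM and CMT versus CM. In CM versus IM all 34 genes lie below 0, with a median of -0.49, and in CMT versus CM their median is 0.39.

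Other genes of coagulation, plasma transport and secretion were taken as a list of 39, of which 36 had an entry and 35 passed the FPKM minimum. In CM versus IM, 9 of the 35 were lower and 1 was higher by at least 1.5-fold, against 12.1% and 11.1% of all mRNA features, and the median log2 ratio was -0.35. As shares, 6 were lower and 5 were higher, against 6.87% and 20.7%. In CMT versus CM, 9 were higher and 2 were lower by that much, against 12.1% and 13.5%, with a median of 0.21. As shares, 7 were higher and 3 were lower, against 6.73% and 22.9%. ITIH4 and LRG1, both secreted proteins of the acute phase, differed most among the abundant genes of the list. ITIH4 was at 10947 FPKM in IM, with 3391 in CM and 16428 in CMT, and LRG1 was at 2370.3, 782 and 4341. CM was the low library for both. AFM, a vitamin E-binding relative of albumin, was at 3449, 1537 and 2769 FPKM, while AFP, the fetal relative, was at only 28.9, 3.65 and 27.2 FPKM. IGFALS, which holds insulin-like growth factors in the circulation, was at 728, 344 and 807 FPKM. Lower in CM by 1.5-fold were also A1BG, at 20990.0, 13299 and 17658 FPKM, SERPINA5, a protein C inhibitor, at 14062, 8985 and 12449, VWF at 25.5, 15.6 and 16.8, and PROCR, the endothelial protein C receptor, at 31.3, 11.9 and 41.3.

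The fibrinolytic activator PLAT was the gene of this list that was higher in CM than in IM by at least 1.5-fold, at 11.9 FPKM in IM, against 21.4 in CM and 8.86 in CMT. It was lowest in CMT. In CMT versus CM, ASGR1, a subunit of the receptor that clears desialylated glycoproteins, was higher by at least 1.5-fold, at 5019 FPKM in IM, against 3592 in CM and 5930 in CMT. Ceruloplasmin (CP), a copper-carrying ferroxidase, was at 5998, 4429 and 8769 FPKM, and VKORC1L1, a relative of the vitamin K reductase, at 195, 136 and 219.

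Abundant carriers and processing enzymes of the list did not all share the low value in CM. Transferrin (TF), the iron carrier, was at 115328 FPKM in IM, against 118067 in CM and 122937 in CMT. The next most abundant genes of the list, APOA1, HPX and APOH, were lowest in CM, at 63098, 45185 and 27677 FPKM. They were at 78115, 63635 and 39930.2 in IM and at 66662, 60690.5 and 35802 in CMT. The carboxylase GGCX was at 195, 204 and 222 FPKM and the reductase VKORC1 at 1865, 2372 and 2063. GGCX and VKORC1 were thus not lowest in CM, whereas VKORC1L1, given above, was lowest there at 136 FPKM. All 5 of the vitamin K-dependent genes described above had a lower deposited value in CM than in IM, though F7 had a higher share. SHBG, the gene of sex hormone-binding globulin, was listed at 0 in IM and CMT and rested on 2 reads in CM, which is too low a level to compare.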

How the data were processed

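Liver RNA of each group was pooled, sequenced as paired Illumina reads and mapped by the authors to pig genome Sscrofa 10.2 with TopHat. The authors deposited FPKM values for each library, and the counting program and annotation are not given in the sources used here. Cells with spreadsheet errors beside 3 genes were not used.

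Groups were compared by ratios of deposited FPKM, without a pseudocount, over mRNA features that reached 1 FPKM in each of the 3 libraries. No p-value was computed, since each group had 1 library. Within most genes the values are multiples of a step, which gave library divisors of 2.51, 3.42 and 2.04 and reads for 23090 of 24277 features above 0, among them 30 of the 34 genes. FGA, FGB, VTN and KLKB1 had none. The smallest length of up to 10000 bases that turned the values of a gene into integers was used, and a factor common to its reads can thereby be lost. For 9 of 13 mitochondrial genes it matched the annotation within 2 bases, for 2 it was shorter, and for 2 it was longer. At most it was 3 times the annotated length, where reads can come out as a multiple. The recovery was tested on simulated data.

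Every gene matched was named, and intervals are 95% exact binomial. Members and lists were chosen with earlier results of these data known. Alternatives were other FPKM minimums, a pseudocount, a 2-fold threshold and 5 other scalings. No sequence was used. Some listed genes are not reported here. Calculations used Python 3.11.15, numpy 2.4.6, pandas 2.3.3, scipy 1.17.1 and matplotlib 3.10.9.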

Additional observations from a re-analysis of the deposited data

How the results depend on the processing

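An FPKM minimum of 10, no minimum and a pseudocount of 1 left the number of genes past 1.5-fold within 1.5 times in all 3 comparisons and changed the sign of none of the 34 ratios. None of the 34 genes was below 628 FPKM in any library, so these settings could hardly alter their ratios. Their outcome was thus known beforehand and is no test of the results. With a 2-fold threshold, 2 genes were lower in CM than in IM, 8 were higher in CMT than in CM, and 0 were higher and 0 lower in CMT than in IM. Of all mRNA features, 4.77% were lower in CM than in IM by 2-fold, 4.80% were higher in CMT than in CM, and 2.16% were higher and 3.98% lower in CMT than in IM.

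The scaling moved the number of genes past 1.5-fold most in CM versus IM. The number lower was 15 as deposited, 5 as shares of the column sum, 8 as shares of the sum without the 34 genes and 4 with equal totals of recovered reads, where 12.1%, 6.87%, 7.63% and 6.42% of all mRNA features were lower. CM was lower than both other libraries by 1.5-fold for 13 genes as deposited and 4 as shares, an alternative chosen after the data were seen. The median log2 ratio was -0.23, -0.28 and -0.21 on these scales, -0.47 with median ratio scaling and -0.45 with upper quartile scaling. For CMT versus CM it was 0.14, 0.15 and 0.15 on the first 3 and 0.32 with the upper quartile. For CMT versus IM it was -0.036 without the 34 genes in the sum, -0.043 with the upper quartile and 0.033 with read totals. With read totals 2 genes were higher and 2 were lower by 1.5-fold in CMT than in IM, against 7.49% and 9.22% of all mRNA features. Equal read totals changed the sign of 9 genes in CM versus IM, 7 in CMT versus CM and 3 in CMT versus IM.

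In IM, CM and CMT the genes held 16.3%, 13.3% and 14.1% of the sum over mRNA features, the genes without ALB held 7.31%, 5.96% and 7.93% of the whole column sum, and the genes held 20.8%, 17.7% and 16.8% of recovered reads, which lack 4 of the genes. No paired analysis was possible because each group had 1 library.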

Other observations

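Coagulation factor X (F10), which converts prothrombin to thrombin, had no entry under its symbol, but its NCBI gene number is that of the entry LOC733662. This match was made after the tables were seen and through a gene table of another assembly (Sscrofa11.1). The entry was at 4633 FPKM in IM, with 3496 in CM and 5041 in CMT, and its recovered reads numbered 10595, 10892 and 9369. CM versus IM gave a log2 ratio of -0.41 and CMT versus CM one of 0.53, so CM was the lowest library and no comparison reached 1.5-fold.

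Transcription factors that act in hepatocytes were taken as a list of 18, of which 17 had an entry and passed the FPKM minimum. In CM versus IM, 5 were lower and 2 were higher by at least 1.5-fold, against 12.1% and 11.1% of all mRNA features, with a median log2 ratio of -0.17. As shares of the column sum, 4 were lower and 5 were higher, against 6.87% and 20.7%. HNF4A, a nuclear receptor that binds many plasma protein promoters, was at 896 FPKM in IM, against 829.8 in CM and 1114 in CMT. CEBPB, a factor of the acute phase response, was at 496, 190.4 and 277 FPKM, and FOXA2 at 174, 54.6 and 102 FPKM, so both were highest in IM. The bile acid receptor NR1H4 was at 759.7, 382 and 694 FPKM and PROX1 at 243, 128 and 237, both with CM as the low library. FOXA3 went the other way, at 59.6 FPKM in IM, with 200.8 in CM and 91.2 in CMT. FOXA1 was also higher in CM than in IM, at 59.3 FPKM in IM, against 91.0 in CM and 93.3 in CMT. No relation between these factors and the plasma protein genes was tested.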
